A study of Mus musculus with 10 samples.

Results

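The expression of 9 genes that protect muscle from reactive oxygen species and free metal ions was compared among 3 mouse skeletal muscles. The genes were the superoxide dismutases Sod1, Sod2, and Sod3, the catalase gene Cat, the glutathione peroxidases Gpx1, Gpx3, and Gpx4, and the metallothioneins Mt1 and Mt2. They are named by family and not selected by a measured value, and all 9 were found among the 16112 genes with deposited counts. Total RNA was sequenced in 10 libraries from wild-type mice of the B6C3Fe a/a-Ttnmdm/J strain, a colony kept for the mdm mutation of the titin gene. All libraries are labelled wild type, no treatment is labelled, and the methods state that the mice had been used in a different study. There were 3 libraries of extensor digitorum longus (EDL) and 3 of psoas, both fast-twitch muscles, and 4 libraries of soleus, a slow-twitch muscle. Mice were 32 to 54 days of age. The EDL and psoas groups each held 2 male libraries and 1 female library, and soleus held 1 male, 2 female, and 1 library with no sex given. The labels held 7 animal codes, and 3 of them were shared by 2 libraries each: EDL 3 with soleus 2, psoas 1 with soleus 1, and psoas 3 with soleus 4. The methods name a smaller number of mice, so that p-values measure the spread between libraries that are not all independent animals.

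Superoxide dismutases turn superoxide into hydrogen peroxide, with Sod1 in the cytosol, Sod2 in the mitochondrial matrix, and Sod3 outside the cell. Hydrogen peroxide is then removed by catalase, which in most cells is found in peroxisomes, and by the glutathione and thioredoxin peroxidases. Metallothioneins are small cysteine-rich proteins that bind zinc and copper, and their genes respond to metals, through the factor MTF-1, and to glucocorticoids. Slow-twitch fibers rely on oxidative metabolism and carry many mitochondria, which are a source of superoxide.

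The total counts of the libraries ranged from 12737971 to 50431713. Sequence quality trimming had been applied to EDL 1, EDL 2, psoas 1, and psoas 2 and to none of the soleus libraries, so trimming was partly confounded with muscle. The 4 female libraries were also the 4 libraries of mice aged 44 days. The share of all counts that fell on Lars2, a gene read as a sign of library composition, was 7.25% to 12.4% in EDL 1, psoas 1, psoas 2, and soleus 1 and at most 0.076% in the other 6 libraries. The skeletal muscle markers summed to between 94138 and 170573 normalized CPM (counts scaled to the size of the library) in the 10 libraries. They summed to 95005 to 124774 CPM in EDL, 140763 to 170573 CPM in psoas, and 94138 to 111469 CPM in soleus. Every psoas library was thus above every library of the other muscles. Fibroblast markers summed to 1868 to 3371 CPM in EDL, 588 to 896 CPM in psoas, and 588 to 1195 CPM in soleus, and tendon markers to 464 to 500 CPM, 26.7 to 68.9 CPM, and 77.0 to 346 CPM. In whole muscle, a larger number of cells of a type and more RNA per cell cannot be told apart.

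The promoter windows of Cat, Mt1, and Mt2 are shown because Cat was the member that differed between muscles and the metallothionein genes were the members that varied most within EDL and within soleus. Each window holds the 250 bases before the start of the gene in the RefSeq annotation of GRCm38.p6, written 5′ to 3′ on the strand of the gene. The Cat window lies at chr2:103485154-103485403 on the minus strand, and the capitals mark the CCAAT box, searched as CCAAT on both strands, and the GC box, searched as GGGCGG on both strands. The Mt1 window lies at chr8:94178839-94179088 and the Mt2 window at chr8:94172368-94172617, both on the plus strand. In these windows, the capitals mark matches on either strand to the core of the metal response element, searched as TGCACNC or TGCGCNC.
Cat: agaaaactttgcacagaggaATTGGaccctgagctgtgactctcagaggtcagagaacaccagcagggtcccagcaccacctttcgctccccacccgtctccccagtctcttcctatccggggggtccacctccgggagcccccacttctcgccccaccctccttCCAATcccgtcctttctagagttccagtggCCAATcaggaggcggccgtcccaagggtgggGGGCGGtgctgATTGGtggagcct
Mt1: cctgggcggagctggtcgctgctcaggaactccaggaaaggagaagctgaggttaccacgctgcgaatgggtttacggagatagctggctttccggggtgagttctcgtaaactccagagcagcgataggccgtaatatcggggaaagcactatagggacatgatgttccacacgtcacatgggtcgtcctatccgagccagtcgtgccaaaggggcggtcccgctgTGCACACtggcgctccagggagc
Mt2: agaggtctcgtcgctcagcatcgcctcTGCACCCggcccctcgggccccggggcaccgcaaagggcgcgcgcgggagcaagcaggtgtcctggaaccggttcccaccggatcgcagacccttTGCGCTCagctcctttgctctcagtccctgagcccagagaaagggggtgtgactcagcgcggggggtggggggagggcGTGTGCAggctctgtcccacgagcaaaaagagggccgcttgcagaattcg

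The Cat window held 4 CCAAT matches and 1 GC box match. Of 32851 RefSeq windows of the same length, 33.8% held at least 1 CCAAT match, 0.84% held at least 4, and 32.7% held a GC box match. The Mt1 window held 1 match to the metal response element and the Mt2 window 3, while 21.4% of all windows held at least 1 and 1.26% at least 3. The Mt2 window also held 1 match to TGACNNNGC, the core of the antioxidant response element, which 10.2% of all windows held. The Sod1 window held 1 such match, and none was found in the windows of Sod2, Cat, Gpx1, Gpx3, Gpx4, and Mt1. A match is a run of letters and was not tested as a binding site. GENCODE places the starts of the other annotated Mt1 transcripts 122 and 152 bases after the RefSeq start, and the first Mt2 start 46 bases after it, so that bases next to those starts lie outside the windows. No window was found for Sod3.

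A gene was called where the Benjamini-Hochberg adjusted p of edgeR's quasi-likelihood test was under 0.01 and the fold change was over 2. By this rule, Cat was the 1 member of 9 that was higher in soleus than in EDL and the 1 member of 9 that was higher in soleus than in psoas. Across all genes tested, 3.59% were called higher and 2.18% lower in soleus vs EDL. The soleus vs psoas comparison called 2.99% higher and 2.71% lower. No member was called lower in soleus in either comparison. In psoas vs EDL, where 0.54% of all genes were called higher and 1.57% lower, edgeR called none of the 9 members. DESeq2 and limma-voom also called none. An unadjusted p under 0.05 was found there for 1 member, against 29% of all genes.

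At the looser limit of an adjusted p under 0.05 with any fold, edgeR took 1 of 9 members in soleus vs EDL, 2 of 9 in soleus vs psoas, and 0 of 9 in psoas vs EDL, against 18.6%, 14.5%, and 11.1% of all genes. The normalized CPM of the muscles did not overlap for 2 members in soleus vs EDL (Cat and Gpx4), where 29.5% of all genes did not overlap. It did not overlap for 2 members in soleus vs psoas (Cat and Gpx3), where the share was 25.8%, and for 1 member in psoas vs EDL (Cat), where it was 29.6%. A single member is 11.1% of the 9, so that counts of 0 to 2 members are few to set against these shares.

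**Figure D1:**
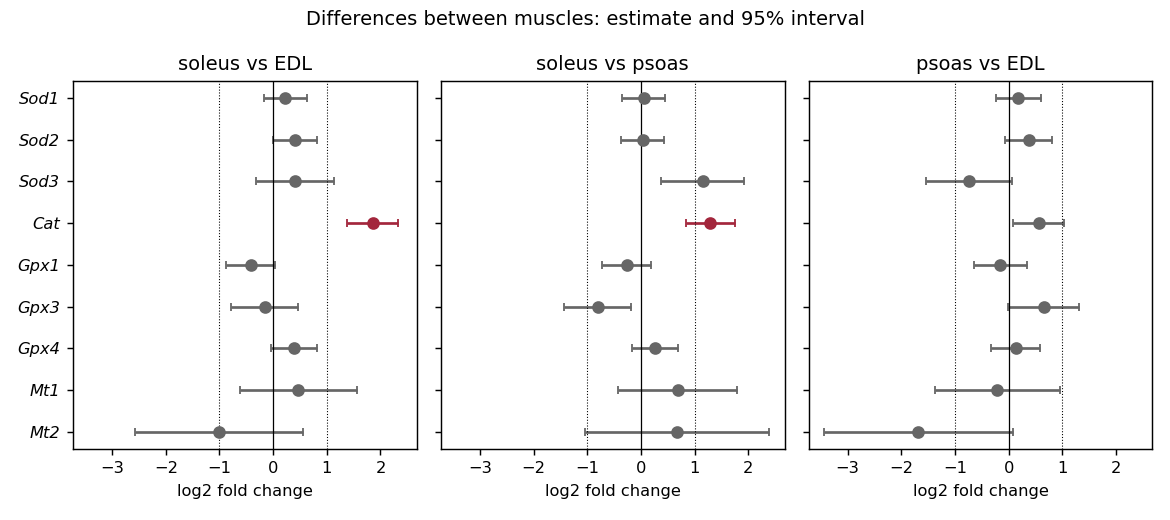
Log2 fold change of the 9 members (points) with the 95% interval (bars) from edgeR in the 3 comparisons of muscles; dotted lines mark a fold of 2, and red marks a called gene. Cat is called in soleus vs EDL (1.85) and soleus vs psoas (1.29), and the intervals of Mt2 are the widest of the members.

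Catalase (ENSMUSG00000027187, GRCm38 chr2:103453849-103485160, minus strand), which splits hydrogen peroxide into water and oxygen, was expressed most in soleus. In FPKM, the unit that scales counts to the length of the gene and the size of the library, Cat was at 20.7, 24.6, and 22.0 in EDL 1 to 3. In psoas 1 to 3 it was at 28.0, 29.8, and 42.7 FPKM. In soleus 1 to 4 it was at 72.8, 64.9, 103, and 82.2 FPKM. Every soleus library was above every psoas library, and every psoas library was above every EDL library. The mean was 22.4 ± 2.01 FPKM in EDL (SD, n = 3), 33.5 ± 8.01 FPKM in psoas (SD, n = 3), and 80.7 ± 16.4 FPKM in soleus (SD, n = 4). Cat was 3.61-fold higher in soleus than in EDL, a log2 fold change of 1.85 (SE 0.21, 95% interval 1.38 to 2.32, edgeR adjusted p = 0.000313). Against psoas, Cat was 2.45-fold higher in soleus, a log2 fold change of 1.29 (SE 0.21, 95% interval 0.83 to 1.75, edgeR adjusted p = 0.00207). Both differences were larger than the spread between libraries. In psoas vs EDL, the log2 fold change was 0.56 (SE 0.22, 95% interval 0.09 to 1.04), which did not pass the threshold (edgeR adjusted p = 0.114).

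The direction of the Cat difference was the same in the untrimmed libraries alone, but the call was lost there. In the 6 untrimmed libraries, the log2 fold change was 1.83 for soleus vs EDL (edgeR adjusted p = 0.0319) and 0.91 for soleus vs psoas (edgeR adjusted p = 0.179), with 1 EDL and 1 psoas library left. The trimmed libraries held no soleus, and gave 0.31 for psoas vs EDL (edgeR adjusted p = 0.309). With trimming as a covariate, soleus vs psoas gave 1.12 (edgeR adjusted p = 0.0145). The call in soleus vs psoas was also lost without psoas 1 (1.15, edgeR adjusted p = 0.0125) or without psoas 2 (1.22, edgeR adjusted p = 0.0138). A stand-in for the sequencing run, built from trimming and age, ended the call in soleus vs EDL (1.54, edgeR adjusted p = 0.0122) and in soleus vs psoas (1.01, edgeR adjusted p = 0.0419). Leaving out any 1 library of the 10 kept the call in soleus vs EDL, with log2 fold changes from 1.67 to 1.93.

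Markers of fat cells, which also express catalase, had higher sums in every soleus library than in every EDL library, while psoas overlapped both. The 6 adipocyte markers summed to 8.73 to 25.8 CPM in EDL, 9.56 to 49.2 CPM in psoas, and 32.0 to 145 CPM in soleus. In psoas 1 to 3, the sums were 49.2, 13.1, and 9.56 CPM, in the opposite order to Cat. In soleus 1 to 4 they were 90.0, 62.6, 145, and 32.0 CPM. Soleus 3 was the highest soleus library for both the markers and Cat, while soleus 4 was the lowest for the markers only. In EDL 1 to 3 they were 8.73, 25.4, and 25.8 CPM, with EDL 1 the lowest for both. The part of these markers in the Cat difference was not tested.

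Genes of the peroxisome and of mitochondrial content were read beside Cat. Of 23 peroxisome genes, edgeR called none in the 3 comparisons, while the unadjusted p was under 0.05 for 11 in soleus vs EDL, 3 in soleus vs psoas, and 6 in psoas vs EDL. Of all genes, 35%, 28.4%, and 29% had an unadjusted p under 0.05 in these comparisons. DESeq2 and limma-voom each called 1 peroxisome gene in soleus vs EDL and none in the other comparisons. The median log2 fold change of the 23 genes was 0.45, 0.17, and 0.33 in soleus vs EDL, soleus vs psoas, and psoas vs EDL, where the median of all genes was -0.05, 0.02, and 0.01. The 16 genes that mark mitochondrial content had medians of 0.62, 0.10, and 0.50 in the same order. An unadjusted p under 0.05 was found for 12, 2, and 9 of the 16. Of these 16 genes, Tomm20, a receptor of the mitochondrial import machinery, was called in soleus vs EDL (log2 fold change 1.02, SE 0.18, edgeR adjusted p = 0.00383). This was 6.25% of the list, where 3.59% of all genes were called higher. The part of organelle content in the Cat levels was not tested.

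The genes with patterns most like Cat over the 10 libraries were Mcee, Hspb7, and Dusp18, with Pearson's r of 0.99 each on log2(CPM + 1) among 12663 other genes with a mean of at least 1 CPM. Mcee encodes an epimerase of the mitochondrial breakdown of propionyl groups, and Hspb7 a small heat shock protein of striated muscle. The libraries share the split into 3 muscles, which enters these correlations, and genes are not independent replicates.

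**Figure D2:**
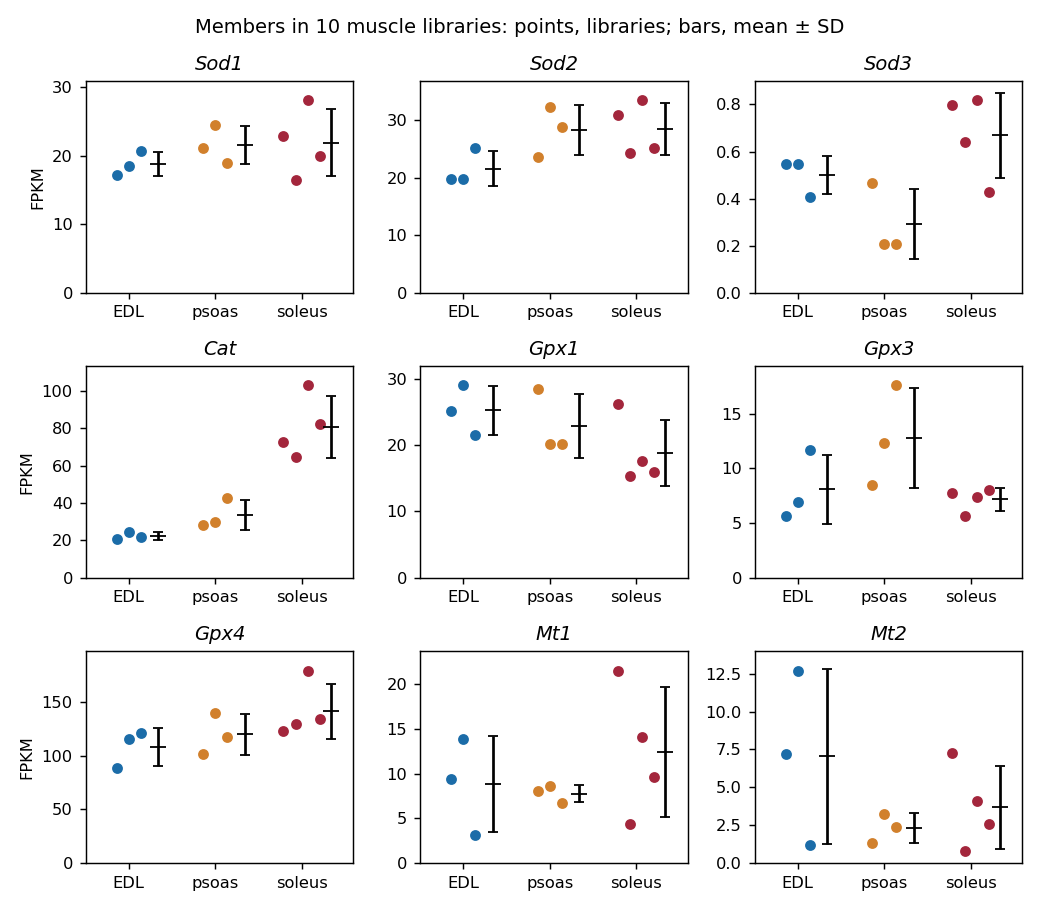
FPKM of the 9 members in EDL, psoas, and soleus, with 1 point for each library and the mean ± SD beside them; each panel has its own vertical axis from 0. The Cat ranges of the 3 muscles do not overlap, though psoas vs EDL was not called, while Mt1 and Mt2 spread widely within EDL and soleus.

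No superoxide dismutase was called, and Sod3 alone passed the looser limit, in soleus vs psoas. Sod1 (ENSMUSG00000022982, GRCm38 chr16:90220754-90226329, plus strand), the copper and zinc enzyme of the cytosol, was at 17.2, 18.4, and 20.6 FPKM in EDL 1 to 3 and at 21.1, 24.5, and 19.0 FPKM in psoas 1 to 3. In soleus 1 to 4 it was at 22.9, 16.5, 28.1, and 20.0 FPKM. The soleus libraries covered the range of both other muscles. The 95% interval of the log2 fold change was -0.17 to 0.63 in soleus vs EDL, -0.35 to 0.45 in soleus vs psoas, and -0.25 to 0.60 in psoas vs EDL, which leaves no room for a fold of 2 in any of them.

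Sod2 (ENSMUSG00000006818, GRCm38 chr17:13006846-13040063, plus strand), the manganese enzyme of the mitochondrial matrix, was at 19.8, 19.8, and 25.2 FPKM in EDL 1 to 3. It was at 23.7, 32.3, and 28.9 FPKM in psoas 1 to 3, and at 31.0, 24.3, 33.5, and 25.2 FPKM in soleus 1 to 4. EDL 3 lay within the range of the psoas and soleus libraries, and the other EDL libraries lay below every library of those muscles. The log2 fold change was 0.41 (SE 0.19, edgeR adjusted p = 0.145) in soleus vs EDL and 0.37 (SE 0.20, edgeR adjusted p = 0.238) in psoas vs EDL. In soleus vs psoas it was 0.03 with a 95% interval of -0.37 to 0.44.

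Sod3 (ENSMUSG00000072941, GRCm38 chr5:52363791-52371418, plus strand), which is secreted and binds to the matrix around cells and vessels, was the lowest of the 9 members. It had 28 to 109 counts in the EDL libraries, 65, 12, and 11 counts in psoas 1 to 3, and 31 to 83 counts in soleus. In EDL 1 to 3 this gave 0.547, 0.547, and 0.407 FPKM, in psoas 1 to 3 0.464, 0.205, and 0.206 FPKM, and in soleus 1 to 4 0.796, 0.639, 0.818, and 0.427 FPKM. Psoas 2 and psoas 3 were the lowest libraries of all, and psoas 1 overlapped the other muscles. In soleus vs psoas, the log2 fold change was 1.15 (SE 0.35, 95% interval 0.38 to 1.93, edgeR adjusted p = 0.049), which passed the looser limit but was not called. In the 6 untrimmed libraries it was 1.68 (edgeR adjusted p = 0.20). With 1 library left out it ranged from 0.96 to 1.69, with adjusted p from 0.0165 to 0.171.

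Levels of different genes were compared per length. With the summed length of all annotated exons, Sod2 held 52.8% ± 1.73 of the summed dismutase level in EDL (SD, n = 3), 56.4% ± 3.93 in psoas (SD, n = 3), and 56.0% ± 2.09 in soleus (SD, n = 4). Sod1 held 46.0%, 43.0%, and 42.7%, and Sod3 at most 1.54% in any library. The order of Sod1 and Sod2 turned with the length used, because annotated transcripts with retained introns give Sod1 a summed exon length of 3970 bases while its longest coding transcript has 641 bases. With the longest coding transcript, Sod1 held 75.7%, 73.3%, and 73.1% in EDL, psoas, and soleus. The shares of Sod1 and Sod2 relative to each other therefore depend on the length used.

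Of the glutathione peroxidases among the members, which use glutathione to reduce peroxides, none was called. Gpx1 (ENSMUSG00000063856, GRCm38 chr9:108338903-108340343, plus strand), the enzyme of the cytosol and mitochondria, was at 25.2, 29.0, and 21.5 FPKM in EDL 1 to 3 and at 28.5, 20.1, and 20.2 FPKM in psoas 1 to 3. In soleus 1 to 4 it was at 26.2, 15.3, 17.6, and 16.0 FPKM. Soleus 1 lay within the range of the fast muscles, and the other 3 soleus libraries lay below every library of those muscles. The log2 fold change in soleus vs EDL was -0.42 (SE 0.21, 95% interval -0.88 to 0.04, edgeR adjusted p = 0.174). Without soleus 1 it was the lowest of the leave-one-out values, -0.62 (edgeR adjusted p = 0.049).

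Gpx3 (ENSMUSG00000018339, GRCm38 chr11:54902453-54910377, plus strand), a secreted enzyme found in plasma, was at 5.63, 6.96, and 11.6 FPKM in EDL 1 to 3 and at 8.45, 12.3, and 17.6 FPKM in psoas 1 to 3. In soleus 1 to 4 it was at 7.73, 5.67, 7.37, and 7.98 FPKM. Every soleus library was below every psoas library. Between soleus and psoas, the log2 fold change was -0.81 (SE 0.28, 95% interval -1.43 to -0.18), which did not pass the threshold (edgeR adjusted p = 0.0834). With trimming as a covariate it was -1.32 (edgeR adjusted p = 0.00335) and was called. In the 6 untrimmed libraries it was -1.30, with psoas 3, the highest library of all for Gpx3, as the only psoas library. The untrimmed library, which was also the female one, was the highest of its muscle in both EDL and psoas.

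Gpx4 (ENSMUSG00000075706, GRCm38 chr10:80047166-80056439, plus strand), which reduces lipid peroxides within membranes, was the highest of the 9 members per length in every library. It was at 88.2, 116, and 121 FPKM in EDL 1 to 3, at 102, 140, and 118 FPKM in psoas 1 to 3, and at 124, 130, 180, and 134 FPKM in soleus 1 to 4. The lowest soleus library was just above the highest EDL library, and psoas overlapped both. The log2 fold change in soleus vs EDL was 0.39 (SE 0.19, 95% interval -0.03 to 0.82, edgeR adjusted p = 0.172). Gpx4 held 76.3% ± 2.20 of the summed level of the 3 peroxidases in EDL (SD, n = 3), 76.8% ± 4.02 in psoas (SD, n = 3), and 84.3% ± 4.06 in soleus (SD, n = 4). Processed copies of Gpx4 exist in the mouse genome, and the handling of reads with several alignments is not given in the sources used here, so part of its count is uncertain.

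Across the 3 families, the mean FPKM was highest for Gpx4 and lowest for Sod3 in each muscle. With summed exon lengths, Cat ranked after Gpx4 and Gpx1 in EDL, and after Gpx4 alone in psoas and soleus. With the longest coding transcript, Sod1 had means of 116, 133, and 136 FPKM in EDL, psoas, and soleus and Sod2 of 36.9, 48.3, and 48.6 FPKM, so that Sod1 came before Cat in every muscle and Sod2 came before Cat in EDL and psoas. By summed exon length in EDL, the ranges of Gpx1, Cat, and Sod2 overlapped, so that their order there was within the spread of the libraries. In soleus, the lowest Cat library (64.9 FPKM) was above the highest library of Sod2 by either length (33.5 and 57.2 FPKM). By counts alone, Cat ranked 632 and Sod2 283 among the 16112 genes.

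Within EDL and within soleus, the metallothioneins differed more between libraries than the means of the muscles differed. Mt1 (ENSMUSG00000031765, GRCm38 chr8:94179082-94180327, plus strand) was at 11.9, 17.4, and 4.01 normalized CPM in EDL 1 to 3 and at 9.90, 10.7, and 8.43 CPM in psoas 1 to 3. In soleus 1 to 4 it was at 27.2, 5.68, 17.5, and 12.4 CPM. The psoas libraries lay close together, within the ranges of EDL and soleus. The coefficient of variation of Mt1 was 60.6% in EDL, 11.7% in psoas, and 57.8% in soleus, where the medians of 12664 genes were 19.2%, 20.4%, and 18.1%. The log2 fold change was 0.47 (SE 0.50) in soleus vs EDL, 0.69 (SE 0.51) in soleus vs psoas, and -0.22 (SE 0.53) in psoas vs EDL, and edgeR adjusted p-values were 0.529, 0.419, and 0.832. The interval of soleus vs EDL, -0.62 to 1.56, leaves room for a fold of more than 2.

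Mt2 (ENSMUSG00000031762, GRCm38 chr8:94172664-94173568, plus strand) was at 4.30, 7.50, and 0.714 CPM in EDL 1 to 3 and at 0.765, 1.90, and 1.42 CPM in psoas 1 to 3. In soleus 1 to 4 it was at 4.31, 0.479, 2.39, and 1.53 CPM. It rested on 13 to 63 counts in all libraries but EDL 1 and EDL 2, which had 184 and 398. EDL held both the highest library and one of the lowest. The coefficient of variation was 81.4% in EDL, 41.9% in psoas, and 74.5% in soleus. The largest estimate was the log2 fold change of -1.68 in psoas vs EDL (SE 0.80, 95% interval -3.44 to 0.07, edgeR adjusted p = 0.191). It was 0.94 in the untrimmed libraries (edgeR adjusted p = 0.974), which hold 1 library of each of these muscles, and -2.26 in the trimmed ones (edgeR adjusted p = 0.0331), so its direction is not settled. An antisense gene on the opposite strand, Gm45774, covers 73.5% of the exon bases of Mt2, and the strand setting of the counting is not given, so that reads of the pair may not be told apart.

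Mt1 and Mt2 lie on chromosome 8, next to each other, and their levels followed each other over the 10 libraries. Pearson's r on log2(CPM + 1) was 0.78 and Spearman's rho 0.87, and r was 0.77 without EDL 3 and soleus 1, the libraries farthest from the median of Mt1. The highest library was 6.78-fold above the lowest for Mt1 and 15.7-fold for Mt2. The ratio of Mt1 to Mt2 counts ranged from 2.32 in EDL 2 to 12.9 in psoas 1. It was 2.77, 2.32, and 5.62 in EDL 1 to 3 and at least 5.60 in every psoas and soleus library.

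EDL 3 and soleus 2, which share an animal code, were the lowest libraries of their muscle for both metallothioneins. The other pairs with a shared code did not go together in this way. Soleus 1 was the highest soleus library for both genes, while psoas 1 was the lowest psoas library for Mt2. Psoas 3 was the lowest psoas library for Mt1 only, and soleus 4 lay between other soleus libraries for both genes. For Mt1, the female libraries were below the male libraries in each muscle: 4.01 CPM against 11.9 and 17.4 CPM in EDL, 8.43 CPM against 9.90 and 10.7 CPM in psoas, and 5.68 and 12.4 CPM against 27.2 CPM in soleus. Soleus 3, with no sex given, was at 17.5 CPM. For Mt2, this order held in EDL and soleus, but in psoas the female library (1.42 CPM) lay between the male ones (0.765 and 1.90 CPM). Sex, an age of 44 days, and the animals cannot be told apart in these libraries. In EDL and psoas, the female library was also the only untrimmed library, so that trimming cannot be told apart from sex there. The sequencing run of each library is not given, so its part cannot be told apart either.

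**Figure D3:**
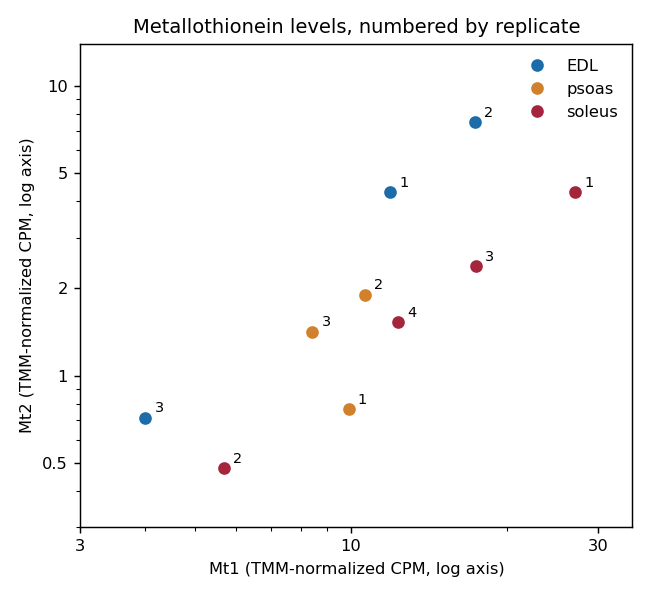
TMM-normalized CPM of Mt1 and Mt2 on log axes, with 1 point for each of the 10 libraries, coloured by muscle and numbered by replicate. The genes follow each other, EDL 3 and soleus 2 sit at the lower left, and EDL 1 and EDL 2 have more Mt2 for their Mt1 than the other libraries.

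The genes with patterns most like Mt1 were Mr1 (r = 0.89), Gdap2 (0.87), and Gclc (0.87), the last encoding the catalytic subunit of the ligase that makes the glutathione precursor. For Mt2 they were Ly6c1 (0.93), P2ry12 (0.90), and Kidins220 (0.90). Among the enzymes, Sod2 was most like Gfm1, Sap18, and Immt (0.96 each), of which Gfm1 and Immt act in mitochondria, and Sod1 was most like Srp14 (0.90), Ugp2 (0.89), and Golga5 (0.89). Sod3 was most like Aacs (0.95), Serpina3c (0.94), and Nectin2 (0.94). Gpx1 was most like Ppl (0.96), Procr (0.96), and Ddx55 (0.91), Gpx3 like 4933434E20Rik, Polh, and Alkbh8 (0.96 each), and Gpx4 like Bloc1s1 (0.97), Vti1b (0.96), and Arhgef10l (0.95). These values describe 10 libraries and carry no test.

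Genes that act with the members were read in lists chosen by function. The copper chaperone of Sod1, Ccs, was not called in any comparison, with log2 fold changes of 0.48 (SE 0.27), 0.52 (SE 0.27), and -0.05 (SE 0.29) in soleus vs EDL, soleus vs psoas, and psoas vs EDL. Mtf1, the metal-responsive factor of the metallothionein genes, had log2 fold changes of 0.95 (SE 0.23, edgeR adjusted p = 0.0171), 0.20 (SE 0.23), and 0.75 (SE 0.24) and was not called. Of the 20 zinc and copper genes measured, Slc39a13, a zinc transporter of the secretory pathway, was lower in soleus than in EDL (log2 fold change -1.02, SE 0.18, edgeR adjusted p = 0.00387). It was the 1 call of edgeR in the 3 comparisons, or 5% of the list in soleus vs EDL, where 2.18% of all genes were called lower. In the 3 comparisons, DESeq2 called 2, 0, and 1 genes of the list and limma-voom 2, 0, and 0. Slc30a2, named after its values were seen, stood apart in the lists, with 4.00 in soleus vs EDL and 4.46 in psoas vs EDL. It was not called (edgeR adjusted p = 0.0528 and 0.0546). It ranged from 1.26 to 26.1 CPM within soleus and from 0.85 to 23.2 CPM within psoas. EDL was at 0.163 to 1.02 CPM, which overlapped psoas. Of 14 glucocorticoid responsive genes, edgeR called none in the 3 comparisons, where 5.77%, 5.69%, and 2.11% of all genes were called. An unadjusted p under 0.05 was found for 4, 4, and 2 of the 14, against 35%, 28.4%, and 29% of all genes. DESeq2 called 2, 2, and 0 of the 14, and limma-voom called 1, 1, and 0. Over all genes, DESeq2 also called more than edgeR in each comparison.

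The peroxiredoxins, which are the thioredoxin-dependent peroxidases, were read with the thioredoxins. Of these 13 genes, edgeR called 1 (7.69%) higher in soleus than in EDL, where 3.59% of all genes were called higher. The median log2 fold change of the 13 was 0.47. The called gene was Prdx6, an enzyme that uses glutathione in place of thioredoxin, with 127 CPM in soleus and 58.3 CPM in EDL (log2 fold change 1.12, SE 0.23, edgeR adjusted p = 0.00783). In soleus vs psoas it was at 0.81 (edgeR adjusted p = 0.0351) and was not called. None of the 13 was called in soleus vs psoas or psoas vs EDL by edgeR, DESeq2, or limma-voom. In these comparisons 4 and 5 of the 13 had an unadjusted p under 0.05, against 28.4% and 29% of all genes. In soleus vs EDL, 9 of the 13 had one in either direction, against 35%. The looser limit was passed there by 5 of the 13, all higher in soleus, against 18.6% of all genes in either direction.

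Glutathione is the reductant of the Gpx enzymes. Of 12 genes of its synthesis and reduction, edgeR called 1 in soleus vs EDL, 2 in soleus vs psoas, and 1 in psoas vs EDL, all lower in the muscle named first, while 5.77%, 5.69%, and 2.11% of all genes were called in either direction. Slc7a11, the light chain of the cystine importer, had 5.24 CPM in EDL, 1.03 CPM in psoas, and 1.15 CPM in soleus, with log2 fold changes of -2.15 (SE 0.35, edgeR adjusted p = 0.00244) in soleus vs EDL and -2.36 (SE 0.40, edgeR adjusted p = 0.00638) in psoas vs EDL. Chac1, which degrades glutathione, had 23.0 CPM in psoas and 2.49 CPM in soleus (log2 fold change -3.17, SE 0.53, edgeR adjusted p = 0.00239). Gclm, the modifier subunit of the ligase named above, had 9.63 CPM in psoas and 4.65 CPM in soleus (log2 fold change -1.05, SE 0.22, edgeR adjusted p = 0.00781). Every EDL library was above every psoas and soleus library for Slc7a11, as for the fibroblast and tendon marker sums, whose part in this difference was not tested. Gclm was also 2.27-fold higher in psoas than in EDL (edgeR adjusted p = 0.0119) and Chac1 stood at -1.96 on the log2 scale between soleus and EDL (edgeR adjusted p = 0.0235), with no overlap between the muscles, but neither was called there.

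Glutathione transferases join glutathione to reactive compounds. Of the 19 measured, edgeR called 2 (10.5%) higher in soleus vs EDL and 2 in soleus vs psoas, where 3.59% and 2.99% of all genes were called higher, with medians of 0.46 and 0.32. The genes were Gsto1, with 53.8 CPM in soleus, 16.9 CPM in EDL, and 17.0 CPM in psoas, and Gstm7, with 4.29, 0.654, and 0.714 CPM. The log2 fold changes of Gsto1 were 1.67 (SE 0.30, edgeR adjusted p = 0.00381) and 1.67 (SE 0.30, edgeR adjusted p = 0.00387), and those of Gstm7 were 2.72 (SE 0.43, edgeR adjusted p = 0.00187) and 2.70 (SE 0.45, edgeR adjusted p = 0.00239). Gstm genes are near-identical paralogs, so the Gstm7 counts are uncertain. In psoas vs EDL, edgeR, DESeq2, and limma-voom called none of the 19, and 4 had an unadjusted p under 0.05, against 29% of all genes.

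NRF2, encoded by Nfe2l2, is a transcription factor that drives many antioxidant genes and is held back by Keap1. Nfe2l2 was not called, with log2 fold changes of 0.23, 0.20, and 0.03 (SE 0.21, 0.21, and 0.22) in soleus vs EDL, soleus vs psoas, and psoas vs EDL. Keap1 was at 0.04, -0.29, and 0.33 (SE 0.16, 0.16, and 0.17) and was not called. Of the 21 genes of this list, edgeR called 2 (9.52%) higher in soleus vs EDL and 2 (9.52%) higher in soleus vs psoas. Of all genes, 3.59% and 2.99% were called higher in these comparisons. In the same comparisons, DESeq2 called 4 and 4 of the 21 and limma-voom 3 and 2. In psoas vs EDL, edgeR and limma-voom called none of the 21 and DESeq2 called 1. An unadjusted p under 0.05 was found there for 9 of the 21, against 29% of all genes. The related factor Nfe2l1 had 305 CPM in soleus and 97.5 CPM in EDL (log2 fold change 1.65, SE 0.26, edgeR adjusted p = 0.00197). Aox1, an aldehyde oxidase, was called against EDL (1.80, SE 0.22, edgeR adjusted p = 0.000397) and against psoas (1.16, SE 0.21, edgeR adjusted p = 0.00416), the same comparisons as Cat. Ephx1, the microsomal epoxide hydrolase, was called against psoas (1.54, SE 0.22, edgeR adjusted p = 0.000975).

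**Figure D4:**
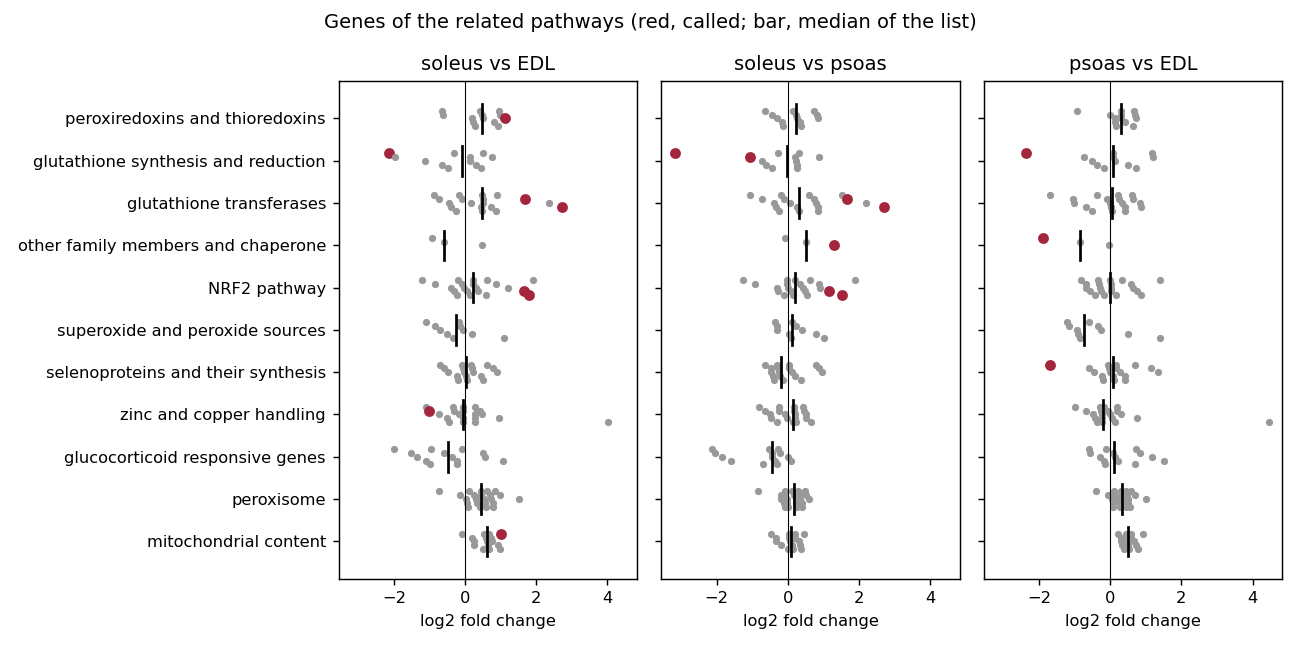
Log2 fold change of each gene (points) in 11 lists of related genes in the 3 comparisons, with the median of each list as a black bar and called genes in red. Most genes lie near 0, and the called genes include Gstm7 (2.72 and 2.70) at the right and Chac1 (-3.17) and Slc7a11 (-2.15 and -2.36) at the left.

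Further relatives of the members were measured as well. Gpx8, a peroxidase of the endoplasmic reticulum membrane, had 14.4 CPM in EDL, 3.87 CPM in psoas, and 9.51 CPM in soleus, and was called in soleus vs psoas (log2 fold change 1.29, SE 0.17, edgeR adjusted p = 0.000565) and in psoas vs EDL (-1.89, SE 0.18, edgeR adjusted p = 0.000675). Gpx2, Gpx5, Gpx6, Mt3, and Mt4 were not among the genes measured. A list held 18 selenoproteins and genes of their synthesis, which Gpx1, Gpx3, and Gpx4 depend on for selenocysteine. Of these 18, edgeR and limma-voom called 1 in psoas vs EDL, and DESeq2 called 3 there. For edgeR this was 5.56% of the list, where 1.57% of all genes were called lower. None of the tools called any in soleus vs EDL or soleus vs psoas. In these, 5 and 6 of the 18 had an unadjusted p under 0.05, against 35% and 28.4% of all genes. In psoas vs EDL, 6 of the 18 had one, against 29%. The edgeR call was Selenom, lower in psoas than in EDL (log2 fold change -1.69, SE 0.29, edgeR adjusted p = 0.00674). The fibroblast and tendon marker sums were higher in every EDL library than in every psoas library, and their part in the Gpx8 and Selenom differences was not tested. Of 10 genes that produce superoxide or hydrogen peroxide, edgeR and limma-voom called none. DESeq2 called 1, 0, and 2 in soleus vs EDL, soleus vs psoas, and psoas vs EDL. In the same order, 4, 2, and 5 of the 10 had an unadjusted p under 0.05, against 35%, 28.4%, and 29% of all genes.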

How the data were processed

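Total RNA of EDL, psoas, and soleus was sequenced in 10 libraries with a stranded kit that depletes ribosomal and globin RNA. According to the study's methods and processing notes, reads of 4 libraries were trimmed with Trimmomatic 0.32, and reads of all libraries were aligned with TopHat2 2.1.1 to GRCm38.p4 and counted per gene in R. The deposited values are raw counts per Ensembl gene, 1 file for each library, made by the authors without normalization and filtered to a minimum of 10 reads in no fewer than 3 samples, which all 16112 genes met. The strand setting of the counting, the handling of reads with several alignments, and the sequencing run of each library are not given in the sources used here.

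Libraries were grouped by the muscle in the labels. Counts were fitted once over the 10 libraries with edgeR 4.0.16 (quasi-likelihood, TMM normalization, no covariate) in R 4.3.3, and p-values were adjusted over all genes by the Benjamini-Hochberg method. The study itself used DESeq2, which was run as an alternative (1.42.0), as was limma-voom (limma 3.58.1). Normalized CPM used TMM factors. FPKM was computed with DESeq2 from summed exon lengths of GENCODE M21, in which 16032 genes have a symbol. Promoters came from RefSeq. Figures were drawn with matplotlib 3.10.9. The tests were checked on simulated counts. Replicates of a muscle differed by far more than sampling noise, so none was counted as a duplicate.

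The members, though listed by gene family and not by a measured value, and the gene lists were chosen with earlier results of these data known. Named genes are the 9 members, the called genes of each list (at most 4), Mtf1, Ccs, Nfe2l2, and Keap1, and the 3 genes most like each member. Alternatives covered the tool, normalization, filter, thresholds, trimming, run, sex, replicate number, animal, leaving out each library, and, added after seeing the data, the gene length. The run covariate is a stand-in built from trimming and age. Limits on precision follow from the total counts of 12737971 to 50431713, and at a count of 0 a library allows up to 3 counts, counting error only.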

Additional observations from a re-analysis of the deposited data

Results flagged for a closer look

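Of the 9 members tested for an outlying library among the 4 soleus libraries, 1 had one. Gpx1 was at 38.1 normalized CPM in soleus 1 and at 23.0 to 25.2 CPM in the other soleus libraries, and the gap to the nearest library was 0.8528 of the whole range (Dixon's ratio, past its 95% critical value). Chance flags about 1 in 20 such groups. Psoas 1, which shares the animal code of soleus 1, was also the highest psoas library for Gpx1, at 40.6 CPM against 28.7 and 29.5 CPM. The groups of 3 EDL and 3 psoas libraries were not tested for outliers.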

How the results depend on the processing

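Under the alternatives, the count of called members fell from 1 to 0 in soleus vs EDL with the run stand-in as a covariate and with the untrimmed libraries alone. In soleus vs psoas it was 2 at an adjusted p under 0.05 with a fold over 2 (Cat and Sod3), 0 with the untrimmed libraries alone, and between 0 and 1 when 1 library was left out. With trimming or the run stand-in as a covariate it stayed at 1 in soleus vs psoas, but the gene was Gpx3 (-1.32 and -1.38) and no longer Cat (1.12 and 1.01, edgeR adjusted p = 0.0145 and 0.0419). Cat in soleus vs EDL was 1.54 with the run stand-in (edgeR adjusted p = 0.0122). The untrimmed fit has fewer libraries, and the cause of the other changes was not tested.

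With a replicate block, Cat gave 1.81 in soleus vs EDL and 1.28 in soleus vs psoas, 1 member was called in each, and none in psoas vs EDL. Over all genes the replicate block called 586, 539, and 146, where 929, 917, and 340 were called without it. Same-numbered libraries did not deviate together in every pair (r from -0.32 to 0.529), so the numbers do not pair the samples throughout. Psoas 1 and soleus 1, which also share an animal code, had r of 0.393. The other pairs with a shared code had r of 0.195 (EDL 3 and soleus 2) and 0.462 (psoas 3 and soleus 4). With the animal code as a random block in limma-voom, the consensus correlation was 0.24.

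Of the 27 log2 fold changes of members, 9 changed direction in at least 1 alternative, and none of these 9 was called in any fit. With trimming as a covariate, Mt2 turned to 0.16 in soleus vs EDL and Sod2 to -0.11 in soleus vs psoas. With the run stand-in, Sod1 turned to -0.0076 in soleus vs EDL and to -0.19 in soleus vs psoas, and Sod2 to -0.29 in the latter. With sex as a covariate, soleus vs psoas gave -0.0669 for Sod1 and -0.0711 for Sod2. With untrimmed libraries alone, Mt2 was 1.52 in soleus vs EDL, Sod2 was -0.0298 in soleus vs psoas, and Sod1, Gpx4, Mt1, and Mt2 were -0.16, -0.0762, 1.03, and 0.94 in psoas vs EDL. Leaving out 1 library moved Gpx3 between -0.41 and 0.20 in soleus vs EDL, Sod1 between -0.10 and 0.16 and Sod2 between -0.11 and 0.15 in soleus vs psoas, and Gpx4 between -0.0284 and 0.22 and Mt1 between -0.60 and 0.26 in psoas vs EDL.

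With the longest coding transcript as the length, the shares in EDL, psoas, and soleus became 75.7%, 73.25%, and 73.11% for Sod1, 23.97%, 26.59%, and 26.52% for Sod2, and 0.3317%, 0.1643%, and 0.3643% for Sod3. Gpx3 became 3.921% in EDL and 2.965% in soleus, and Gpx4 81.17% in EDL and 81.82% in psoas.

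The count of called genes over all settings ranged from 48 to 1853 in soleus vs EDL, 33 to 1563 in soleus vs psoas, and 0 to 1233 in psoas vs EDL, lowest with the untrimmed libraries and highest at an adjusted p under 0.05. DESeq2 called 1520, 1383, and 1094, trimming as a covariate gave 371, 566, and 605, and the run stand-in 251, 475, and 757. In soleus vs EDL, leaving out EDL 1, EDL 2, EDL 3, or soleus 4 gave 385, 405, 1511, and 588. In soleus vs psoas, leaving out psoas 1, psoas 2, soleus 2, or soleus 4 gave 568, 493, 609, and 602. In psoas vs EDL, leaving out EDL 1, EDL 2, psoas 1, psoas 2, or psoas 3 gave 61 to 92, EDL 3 gave 963, and soleus 1 or soleus 4 gave 194 and 174. In that comparison, sex as a covariate gave 865, the trimmed libraries 159, and the 2 muscles alone 153. Depth limits Mt2 and Sod3, with as few as 13 and 11 counts in a library.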
